A study of Mus musculus with 11 samples.

Results

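The cathepsins are proteases of the lysosome, and cystatin C is a secreted inhibitor of the cysteine cathepsins. Their transcripts were described in alveolar macrophages (AMs) from the lungs of mice with and without the nuclear receptors RXRα and RXRβ. The group is a list of 10 gene names that sets no threshold on their values: the cysteine cathepsins Ctsb, Ctsc, Ctsh, Ctsk, Ctsl, Ctss and Ctsz, the aspartic protease Ctsd, the serine carboxypeptidase Ctsa and the inhibitor Cst3. All 10 were found among the 12932 genes of the table, and all 10 were among the 12889 genes tested.

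RNA was sequenced from 40000 sorted cells per library, taken from 9-week-old mice of both sexes on the C57BL/6J background, all of which carried floxed Rxra and Rxrb alleles. The label of the control group is CD11cCre- Rxrabfl/fl, and these cells are mature AMs (mAM_WT, 4 libraries). The other groups are labelled CD11cCre+ Rxrabfl/fl and are mature AMs (mAM_KO, 4 libraries) and immature AMs (ImmAM_KO, 3 libraries, numbered 2 to 4). Mature cells were gated as CD11b- and SiglecF+ and immature cells as CD11b+ and SiglecF+. Cre was driven by the Cd11c promoter, so the deletion was not limited to AMs, and the libraries used here include no control ImmAMs, so that between ImmAM_KO and mAM_WT the stage of the cells and the deletion cannot be told apart. The figure legends of the study count 3 of the 4 mAM_KO libraries as mice, the columns of its gene list are those of replicates 1 to 3, and no reason for leaving out replicate 4 was found. Replicates 1 to 3 entered the main fit here, and values of replicate 4 are given apart. With it in the fit, 337 genes in place of 624 were called between the mAM groups. The labels do not say whether a library came from 1 mouse or from several, so p-values measure the spread between libraries.

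Between 16659960 and 37873532 reads were counted per library. The deposited unit is CPM, reads of a gene relative to all reads of the library, scaled between libraries by the authors. In bulk RNA, a change in the share of a cell type and a change in the RNA per cell cannot be told apart. Rxra was at 344 ± 29.0 CPM (SD, n = 4) in mAM_WT, 344 ± 9.12 CPM (n = 3) in mAM_KO and 291 ± 12.2 CPM (n = 3) in ImmAM_KO. Rxrb was at 59.8 ± 9.29, 46.1 ± 6.79 and 33.5 ± 1.64 CPM in the same order. In replicate 4 of mAM_KO, Rxra was at 419 CPM, above every other library, and Rxrb at 55.3 CPM. Neither was called in mAM_KO against mAM_WT (p-adj = 0.993 and 0.0972), and both were lower in ImmAM_KO than in mAM_WT (p-adj = 0.0141 and 0.000126). The call of Rxra was lost after quantile normalization (p-adj = 0.0963) and without ImmAM_KO replicate 2 or 4 (0.0551 and 0.0599), and Rxrb was called in mAM_KO against mAM_WT in DESeq2 (0.0477). These values cover the whole gene, floxed and other exons together, so they do not measure the floxed exons alone. From relative mRNA of Rxra and Rxrb, the study reports that this Cre driver deleted them efficiently in mature and immature AMs.

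Cathepsins are made as inactive precursors, are carried to the lysosome by sorting receptors and become active in its acid lumen. AMs use them to break down inhaled material and surfactant proteins, and some are also secreted and cut matrix proteins such as collagen and elastin. Cystatin C, encoded by Cst3, binds cysteine cathepsins outside the cell and in the secretory route, and does not inhibit Ctsd or Ctsa.

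Ctsk and Ctss are neighbours on chromosome 3 and had the largest differences of all members between ImmAM_KO and mAM_WT, so the DNA before their starts is shown first. On GRCm38, Ctsk lies at chr3:95499256-95509362 and Ctss at chr3:95526786-95556403, both on the plus strand with 17423 bases between them. RefSeq promoter windows (GRCm38.p6) were matched for 8 of the 10 members, all except Ctsb and Ctsh. The 250 bases before the start are printed for the 4 genes whose window holds no annotated exon, 5′ to 3′ on the strand of the gene. Capitals mark AGGTCA, the core hexamer that RXR and its partner receptors recognise, on either strand. The windows are those of Ctsk (chr3:95498960-95499209, plus strand), Ctss (chr3:95526536-95526785, plus strand), Ctsc (chr7:88277835-88278084, plus strand) and Ctsz (chr2:174439040-174439289, minus strand).
Ctsk: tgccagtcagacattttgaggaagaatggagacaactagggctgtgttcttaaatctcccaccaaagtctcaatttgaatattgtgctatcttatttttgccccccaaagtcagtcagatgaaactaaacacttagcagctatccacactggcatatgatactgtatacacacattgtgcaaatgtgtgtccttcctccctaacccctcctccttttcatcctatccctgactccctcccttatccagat
Ctss: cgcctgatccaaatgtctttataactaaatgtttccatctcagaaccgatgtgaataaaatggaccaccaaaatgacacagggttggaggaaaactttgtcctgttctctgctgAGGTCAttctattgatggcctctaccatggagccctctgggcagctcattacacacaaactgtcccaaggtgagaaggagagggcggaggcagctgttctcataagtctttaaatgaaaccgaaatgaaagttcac
Ctsc: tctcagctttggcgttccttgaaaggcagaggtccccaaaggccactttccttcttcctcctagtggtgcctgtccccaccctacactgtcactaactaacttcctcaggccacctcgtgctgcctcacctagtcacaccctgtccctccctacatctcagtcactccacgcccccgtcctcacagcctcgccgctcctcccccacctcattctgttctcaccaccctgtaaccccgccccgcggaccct
Ctsz: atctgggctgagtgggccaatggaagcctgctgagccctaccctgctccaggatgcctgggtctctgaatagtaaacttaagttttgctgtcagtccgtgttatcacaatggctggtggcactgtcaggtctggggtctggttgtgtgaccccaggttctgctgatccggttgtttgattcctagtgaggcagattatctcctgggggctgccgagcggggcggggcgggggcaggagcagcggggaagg

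Of these 4 windows, that of Ctss held 1 such hexamer, which began 136 bases before the start. The hexamer was also found in windows of Ctsa, Ctsd and Cst3, and 14.0% of all 32851 promoter windows of that length held at least 1. The direct repeat AGGTCANAGGTCA, in which N is any base, was in none of the 9 windows of the members (Ctsa has 2) and in 0.0335% of all windows. The palindrome CACGTG, the centre of the motif of the lysosomal regulator TFEB, was found in windows of Ctsa, Ctsd and Ctsl, against 6.02% of all windows. All motifs were searched on both strands, they were chosen after the members' values had been seen, and a match is a description of the letters only. The study names Ctsk among the genes nearest to RXRα-bound regions in mAMs, and it places most such regions outside promoters. A window without the hexamer therefore does not show that no RXR is bound near the gene.

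Ctsk was the 1 member called between the mAM groups, and it rose in mAM_KO and more in ImmAM_KO. Ctsk, a collagenase and elastase best known from osteoclasts, was at 273, 277, 303 and 245 CPM in the mAM_WT libraries. In mAM_KO it was at 464, 409 and 489 CPM, with 475 CPM in replicate 4. The groups did not overlap. The level was 275 ± 23.9 CPM (n = 4) in mAM_WT and 454 ± 40.7 CPM (n = 3) in mAM_KO, which is 1.65-fold higher (95% interval 1.47 to 1.86, log2 difference 0.73 ± 0.08 SE, p-adj = 0.000748). With replicate 4 in the fit, the log2 difference was 0.74 (p-adj = 0.000204). In ImmAM_KO, Ctsk was higher again, at 1061, 1059.7 and 1059 CPM. The mean of 1059.8 CPM was 3.87-fold that of mAM_WT (95% interval 3.44 to 4.36, p-adj = 9.72e-10) and 2.34-fold that of mAM_KO (2.06 to 2.66, p-adj = 2.08e-07). The SD of these 3 values, 1.07 CPM, was 0.101% of the mean, below the counting error of 0.662% to 0.75% of single libraries, so it is no measure of the spread between mice. In a separate depletion experiment, the study counts Ctsk among AM-core genes that rose while recruited monocytes became AMs.

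**Figure D1:**
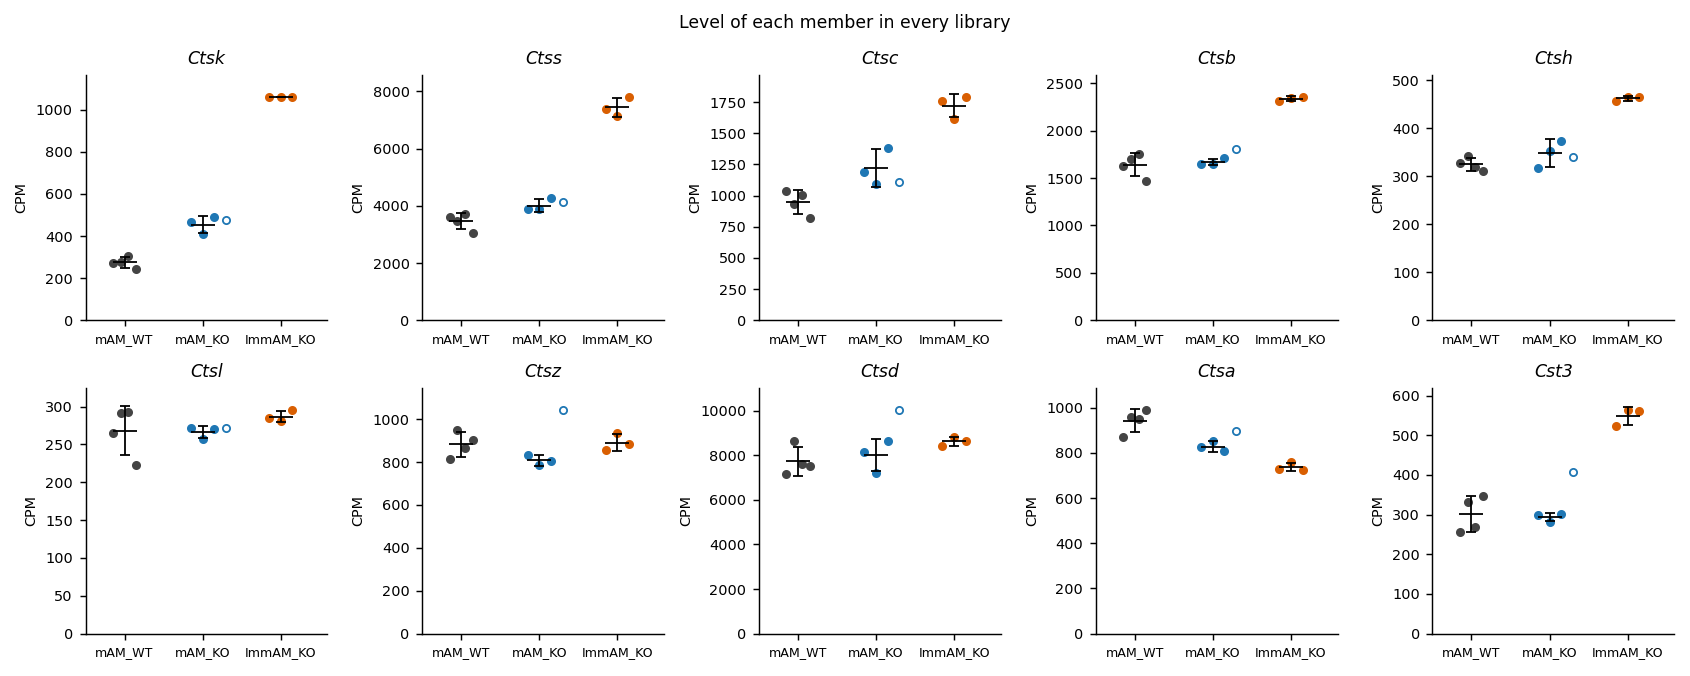
CPM of the 10 members (1 panel each, linear axis from 0) in each library of mAM_WT, mAM_KO and ImmAM_KO. Dots are libraries, open dots are mAM_KO replicate 4, and bars are the mean and SD without it. Ctsk steps up from 245 to 303 CPM in mAM_WT to 409 to 489 CPM in mAM_KO and 1059 to 1061 CPM in ImmAM_KO, whereas Ctsl, Ctsz and Ctsd overlap between ImmAM_KO and mAM_WT.

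Ctss, an elastase that stays active at neutral pH and trims the invariant chain of MHC class II, had the next largest difference between ImmAM_KO and mAM_WT. Its levels were 3610.3, 3488, 3714 and 3062 CPM in mAM_WT and 7398, 7147 and 7811 CPM in ImmAM_KO. The groups lay far apart, and the mean was 2.15-fold higher in ImmAM_KO (7452 ± 336 CPM, n = 3) than in mAM_WT (3469 ± 286 CPM, n = 4), with an interval of 1.89 to 2.45 and p-adj = 2.76e-07. In mAM_KO it was at 3893, 3875 and 4268 CPM, with 4148 CPM in replicate 4. All of these values were above the highest mAM_WT library. The fold of 1.16 (95% interval 1.02 to 1.32) did not pass the test across all genes (p-adj = 0.154). Against mAM_KO, Ctss was 1.86-fold higher in ImmAM_KO (1.62 to 2.13, p-adj = 6.24e-06).

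Ctsc, or dipeptidyl peptidase I, activates serine proteases of myeloid granules. It was at 1041, 936, 1008 and 823 CPM in mAM_WT, at 1189, 1092 and 1386 CPM in mAM_KO and at 1757, 1615 and 1792 CPM in ImmAM_KO. The lowest mAM_KO library, replicate 2, was above the highest mAM_WT library, as was replicate 4 at 1109 CPM. Its fold of 1.28 between the mAM groups (95% interval 1.11 to 1.48) fell just short of the threshold (p-adj = 0.0526). Ctsc passed it with a filter at 5 CPM (p-adj = 0.0443), after quantile normalization (0.0344), in DESeq2 (0.00618), without mAM_KO replicate 2 (0.0270) and without mAM_WT replicate 1 (0.0367). With replicate 4 added, its p-adj was 0.0895. In ImmAM_KO it was 1.81-fold higher than in mAM_WT (1.57 to 2.10, p-adj = 9.77e-06) and 1.41-fold higher than in mAM_KO (1.21 to 1.65, p-adj = 0.00201).

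Ctsb and Ctsh were higher in ImmAM_KO and close to mAM_WT in mAM_KO. Ctsb, a broad endopeptidase and carboxydipeptidase, was at 1632, 1704, 1759 and 1472 CPM in mAM_WT and at 2313, 2347 and 2357 CPM in ImmAM_KO, a 1.43-fold rise (1.28 to 1.59, p-adj = 5.52e-05). Its mAM_KO libraries, at 1646, 1653 and 1709 CPM, lay within the range of mAM_WT (1.02-fold, 0.917 to 1.13), and only replicate 4, at 1809.6 CPM, was above it. Ctsh, an aminopeptidase that takes part in the processing of surfactant proteins, was at 328, 342, 319.7 and 311 CPM in mAM_WT and at 457, 466 and 466 CPM in ImmAM_KO. That was a 1.42-fold rise (1.29 to 1.57, p-adj = 3.34e-05). Ctsh in mAM_KO, at 317, 353, 374 and, in replicate 4, 341 CPM, overlapped mAM_WT (1.07-fold, 0.968 to 1.18). Against mAM_KO, Ctsb was 1.40-fold (p-adj = 0.000224) and Ctsh 1.33-fold (p-adj = 0.000479) higher in ImmAM_KO.

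Ctsl and Ctsz, the other cysteine cathepsins, passed the test in no comparison of the reported fit. Ctsl, a potent lysosomal endopeptidase, ranged from 223 to 292 CPM in mAM_WT, from 258 to 272 CPM over all 4 mAM_KO libraries and from 281 to 295 CPM in ImmAM_KO. The interval of its fold was 0.877 to 1.14 in mAM_KO and 0.944 to 1.22 in ImmAM_KO against mAM_WT. Ctsz, a carboxypeptidase, ranged from 814 to 948 CPM in mAM_WT, from 785 to 835 CPM in mAM_KO replicates 1 to 3 and from 855 to 934 CPM in ImmAM_KO. Its fold was 0.918 (0.831 to 1.01) in mAM_KO and 1.01 (0.915 to 1.12) in ImmAM_KO against mAM_WT. In replicate 4 of mAM_KO, Ctsz stood at 1042 CPM, above every other library. In ImmAM_KO against mAM_KO, Ctsz passed the test only after quantile normalization (log2 difference 0.18, p-adj = 0.0440).

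Ctsd, the main aspartic protease of the lysosome, did not pass the test in any comparison. It was at 7157, 8643, 7606 and 7506 CPM in mAM_WT, at 8137, 7216 and 8633 CPM in mAM_KO replicates 1 to 3 and at 8434.5, 8838 and 8649 CPM in ImmAM_KO. The groups overlapped, and the highest value, 10026.5 CPM, was that of mAM_KO replicate 4. The fold was 1.03 (0.899 to 1.19) in mAM_KO and 1.12 (0.974 to 1.29) in ImmAM_KO against mAM_WT. Ctsd shares 31.9% of its 60-base transcript windows with Gm49369, a gene annotated over it on the same strand, so that reads could be split between them. Gm49369 was at 137 to 814 CPM and differed several times over between libraries of 1 group. With its CPM added to Ctsd, the fit gave log2 differences of 0.07 and 0.13 (p-adj = 0.667 and 0.241) in place of 0.05 and 0.16.

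Ctsa was the only member called lower in any of the 3 comparisons, in ImmAM_KO against mAM_WT. Ctsa, also called protective protein because it stabilises lysosomal neuraminidase and β-galactosidase, was at 871, 960.2, 951 and 989 CPM in mAM_WT and at 729.7, 758 and 722 CPM in ImmAM_KO. Every ImmAM_KO library was below every mAM_WT library, and the fold was 0.782 (0.713 to 0.858, p-adj = 0.000402). In mAM_KO it was at 825, 853 and 806 CPM, below the lowest mAM_WT library, but replicate 4, at 897 CPM, was within the range of mAM_WT. Ctsa overlaps Neurl2 and Pltp on the other strand, and Ctsb overlaps Fdft1 and Ctsz overlaps Nelfcd in the same way. The study made its libraries with a directional kit, but no source used here says whether strand was used in counting. The fold of 0.879 (0.801 to 0.964) did not pass the test in mAM_KO against mAM_WT (p-adj = 0.0949). It passed in DESeq2 (p-adj = 0.0281) and without mAM_WT replicate 1 (p-adj = 0.0477). In ImmAM_KO against mAM_KO, the fold of 0.890 (p-adj = 0.0611) passed with all 11 libraries (p-adj = 0.0338), in DESeq2 (0.0459), with only these groups in the fit (0.0371) and without mAM_WT replicate 1 or 4 (0.0452 and 0.0373).

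The inhibitor Cst3 was higher in ImmAM_KO than in either mAM group and did not pass the test between the mAM groups. Cst3 was at 257, 333, 268 and 346 CPM in mAM_WT, at 298, 282 and 301 CPM in mAM_KO replicates 1 to 3 and at 524, 564 and 561 CPM in ImmAM_KO. The mAM_KO libraries lay within the range of mAM_WT, and replicate 4, at 407 CPM, lay between the other mAM libraries and ImmAM_KO. With it in the fit, the log2 difference between the mAM groups was 0.09 in place of −0.02. Against mAM_WT, the fold was 0.983 (0.849 to 1.14, p-adj = 0.904) in mAM_KO and 1.84 (1.59 to 2.13, p-adj = 8.70e-06) in ImmAM_KO. Against mAM_KO, ImmAM_KO was 1.87-fold higher (1.60 to 2.19, p-adj = 1.94e-05).

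Counted over the members, 1 of 10 was called in mAM_KO against mAM_WT, beside 4.84% of all 12889 genes tested. It was higher, as were 2.25% of all genes, and no member was called lower, beside 2.59% of all genes. At an unadjusted p under 0.05, 3 members were higher (10.8% of all genes) and 1, Ctsa, was lower (12.8%). DESeq2 called 2 higher (4.86% of all genes) and 1 lower (6.06%), and edgeR and limma-voom called Ctsk alone. Over all genes, at an unadjusted p under 0.05, 3042 genes passed there. In ImmAM_KO against mAM_WT, 7 of 10 members were called, beside 48.1% of all genes. Here 6 members were higher (22.8% of all genes) and 1 was lower (25.3%). In ImmAM_KO against mAM_KO, 6 of 10 were called (37.9% of all genes), with 6 higher (17.7%) and 0 lower (20.2%). At an unadjusted p under 0.05, 6 were higher (22.3% of all genes) and 1, again Ctsa, was lower (24.4%). In DESeq2 6 were higher (19.4%) and 1 lower (20.1%), and in edgeR and limma-voom 6 were higher and 0 lower. Both comparisons with mAM_WT use the same control libraries, and both with ImmAM_KO use the same ImmAM libraries, so that the 3 sets of calls are not independent.

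The median log2 difference of the members was 0.04 in mAM_KO against mAM_WT, 0.51 in ImmAM_KO against mAM_WT and 0.45 in ImmAM_KO against mAM_KO, and that of all genes was within 0.01 of 0 in each. Overlap was counted without mAM_KO replicate 4. Between the mAM groups the libraries did not overlap, with the higher values in mAM_KO, for Ctsc, Ctsk and Ctss (8.92% of all genes). They did not overlap, with the lower values there, for Ctsa (11.2%), but Ctsa in replicate 4, at 897 CPM, was within the range of mAM_WT. In ImmAM_KO against mAM_WT they did not overlap for the 6 members called higher (24.9% of all genes) and for Ctsa (26.4%). Against mAM_KO, ImmAM_KO was apart and higher for 8 members, these 6 with Ctsl and Ctsz (24.8%), and apart and lower for Ctsa (26.3%). With replicate 4 of mAM_KO, at 1042 CPM, Ctsz was no longer apart.

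**Figure D2:**
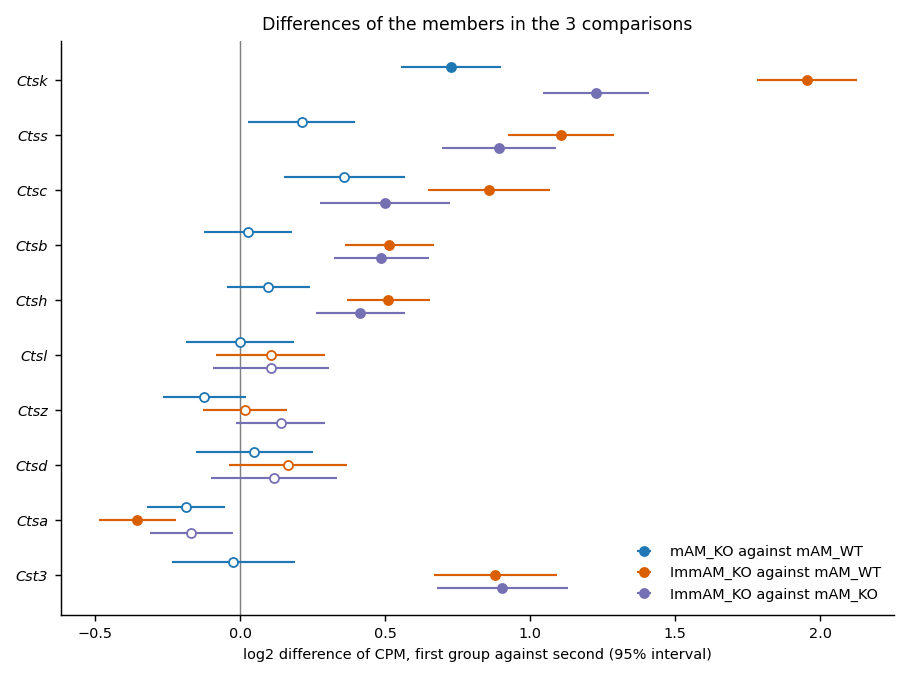
Log2 differences of CPM (horizontal axis) of the 10 members in the 3 comparisons, with 95% intervals from the limma fit; filled dots passed p-adj under 0.05. In mAM_KO against mAM_WT the filled dot is Ctsk at 0.73, while in ImmAM_KO against mAM_WT 6 members are filled to the right of 0 and Ctsa, at −0.35, to the left.

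To compare levels between genes, CPM were divided by the length of the exons in kb. On this scale Ctsd (3287 ± 272 CPM per kb) and Ctss (2554 ± 211) led in mAM_WT, and both were far above the next member, Ctsz (612 ± 39.3), with no overlap between libraries. Ctsb, Cst3, Ctsa, Ctsk and Ctsc lay between 164 and 271 CPM per kb there, and each neighbour in that order overlapped the next. Ctsh (72.3 ± 2.91) and Ctsl (41.3 ± 5.03) were the lowest. In ImmAM_KO, Ctss (5487 ± 247) was above Ctsd (3675 ± 85.9), with no overlap between their libraries, and Ctsk (701 ± 0.709) came next, above Ctsz (618 ± 27.6). Ctsk thus went from position 7 in mAM_WT to 4 in mAM_KO and 3 in ImmAM_KO, and in mAM_KO its libraries overlapped those of Ctsb, the next in order. With the longest coding transcript as the length, the positions of Ctsk were 9, 7 and 3, and Ctsd and Ctss kept the places at the top and Ctsl the last one.

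**Figure D3:**
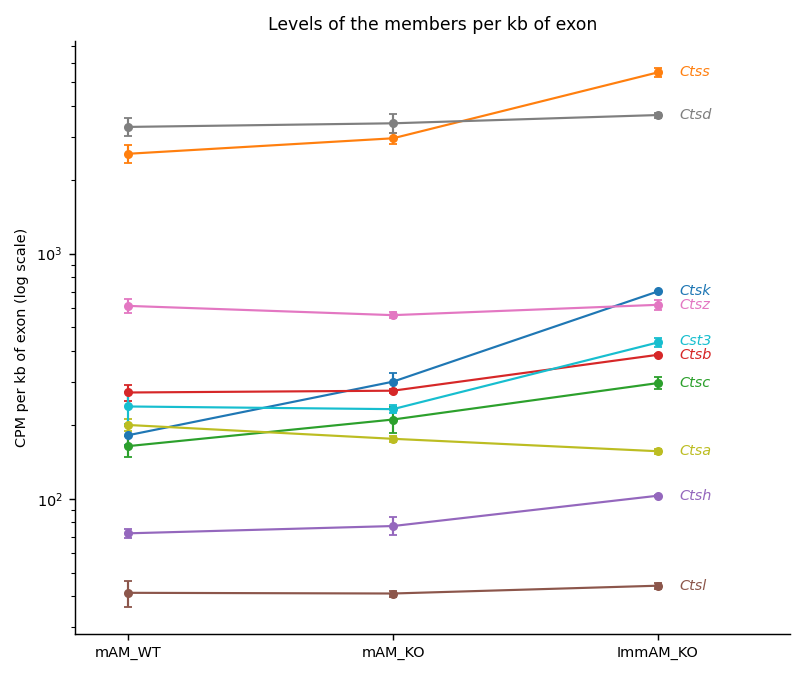
Mean CPM per kb of exon (vertical log axis) of the 10 members in mAM_WT, mAM_KO and ImmAM_KO, with the SD over 4, 3 and 3 libraries. Ctss crosses above Ctsd in ImmAM_KO (5487 against 3675 CPM per kb), and Ctsk climbs from 182 to 701 CPM per kb.

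Together the 10 members took up 1.62% to 1.77% of all CPM in the mAM_WT libraries, 1.68% to 2.03% in the 4 mAM_KO libraries and 2.40% to 2.45% in ImmAM_KO. Every ImmAM_KO library was above every mAM library. The members did not share this rise equally: Ctss alone made up 19.3% to 22.2% of their CPM in mAM_WT and 29.8% to 31.8% in ImmAM_KO. Ctsk was at 7.55% to 8.17% of the CPM of Ctss in mAM_WT, at 10.6% to 11.9% in mAM_KO and at 13.6% to 14.8% in ImmAM_KO, so that the neighbouring genes did not rise in proportion and the 3 ranges were apart. Cst3 was at 3.23% to 4.92% of the summed CPM of the 7 cysteine cathepsins in mAM_WT, at 3.24% to 4.43% in mAM_KO and at 3.71% to 4.07% in ImmAM_KO. For the inhibitor relative to these proteases the groups overlapped, although both sides of the ratio were higher in ImmAM_KO.

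**Figure D4:**
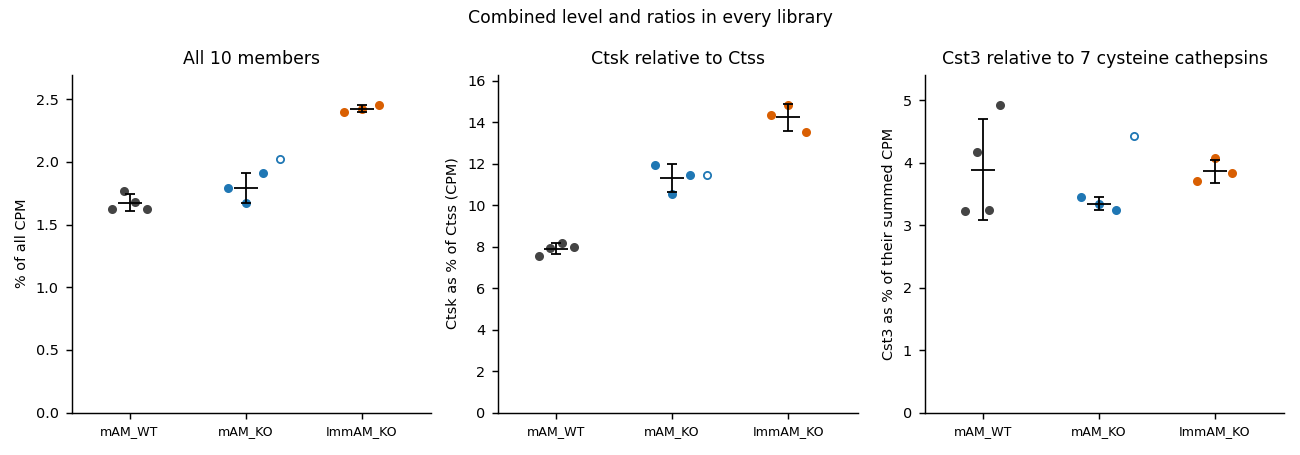
Share of the 10 members in all CPM, Ctsk as a percentage of Ctss and Cst3 as a percentage of the summed CPM of 7 cysteine cathepsins, in each library (dots; open dots are mAM_KO replicate 4; bars are the mean and SD without it). The middle panel shows 3 separate ranges, 7.55% to 8.17%, 10.6% to 11.9% and 13.6% to 14.8%, and in the right panel the 3 groups overlap.

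Related genes of the pathway were read from the same fit. Of 20 other cathepsins and lysosomal peptidases, 8 had a row in the table. None was called in mAM_KO against mAM_WT by limma, edgeR, DESeq2 or limma-voom. At an unadjusted p under 0.05 in limma, 1 was higher (10.8% of all genes) and 1 lower (12.8%). In ImmAM_KO against mAM_WT 3 were higher (22.8% of all genes) and 1 lower (25.3%). In ImmAM_KO against mAM_KO 3 were higher (17.7% of all genes) and 1 lower (20.2%). Lgmn, or legumain, which cleaves cathepsin precursors into their mature chains, was at 169 ± 15.6 CPM in mAM_WT, 204 ± 33.9 CPM in mAM_KO and 468 ± 7.86 CPM in ImmAM_KO (log2 difference from mAM_WT 1.47, p-adj = 1.03e-07). Lgmn in replicate 4 of mAM_KO was at 254 CPM, and in mAM_KO against mAM_WT it passed the test without mAM_KO replicate 2 (p-adj = 0.0288). Scpep1, a serine carboxypeptidase, was at 108 ± 6.17, 100.4 ± 7.60 and 202 ± 1.90 CPM in the same order (0.91, p-adj = 3.07e-07). Napsa, an aspartic protease, was low in mAM_WT (1.36 ± 0.862 CPM) and at 8.90 ± 0.342 CPM in ImmAM_KO (2.88, p-adj = 0.000130). Ctsf, another cysteine cathepsin, was lower, at 35.0 ± 2.79 CPM in mAM_WT and 26.0 ± 4.69 CPM in ImmAM_KO (−0.44, p-adj = 0.0119, or 0.0686 without ImmAM_KO replicate 2).

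Of 23 other cathepsin inhibitors, 4 were tested. None was called in mAM_KO against mAM_WT by any of the 4 tools. At an unadjusted p under 0.05 in limma, 1 was higher (10.8% of all genes). In ImmAM_KO, 2 were higher (22.8% of all genes) and 1 lower (25.3%) against mAM_WT, and 1 was lower against mAM_KO (20.2%). Serpinb1a, an inhibitor of granule serine proteases, was at 181 ± 11.1 CPM in mAM_WT, 199 ± 10.3 CPM in mAM_KO and 71.1 ± 5.52 CPM in ImmAM_KO (−1.35 against mAM_WT, p-adj = 1.35e-08). Cstb, the cystatin of the cytosol, was at 108 ± 4.68, 109.6 ± 8.04 and 122 ± 0.370 CPM (0.18 in ImmAM_KO against mAM_WT, p-adj = 0.0440). With all 11 libraries its p-adj was 0.101, and the call was also lost without any 1 of the ImmAM_KO libraries, mAM_KO replicate 1 or mAM_WT replicate 1, 2 or 3 (0.0525 to 0.106). In replicate 4 of mAM_KO, Serpinb1a was at 167 CPM and Cstb at 132 CPM.

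All 11 genes of lysosomal sorting were tested, and they moved in both directions. In mAM_KO against mAM_WT, 1 was called lower (2.59% of all genes) and 0 higher (2.25%). It was Gga1, an adaptor that carries mannose 6-phosphate receptors from the Golgi. Gga1 was at 128 ± 14.5 CPM in mAM_WT and 100.4 ± 5.80 CPM in mAM_KO (−0.35, p-adj = 0.0484). In replicate 4 of mAM_KO, Gga1 was at 132 CPM, within the range of mAM_WT, and with all 11 libraries its p-adj was 0.293. The call was also lost in edgeR (0.0512), in limma-voom (0.0531), and without any 1 of the ImmAM_KO libraries, mAM_KO replicate 1 or 3 or mAM_WT replicate 2, 3 or 4 (0.0557 to 0.149). Of the sorting genes, edgeR and limma-voom called 0 between the mAM groups and DESeq2 called 3, of which 2 were lower (6.06% of all genes). In ImmAM_KO against mAM_WT, 3 were higher (22.8% of all genes) and 5 lower (25.3%). Against mAM_KO, 2 were higher in ImmAM_KO (17.7% of all genes) and 3 lower (20.2%). Sort1, or sortilin, a receptor that takes enzymes to the lysosome without mannose 6-phosphate, had the largest fall. It was at 1933 ± 56.6 CPM in mAM_WT, 1794 ± 64.2 CPM in mAM_KO and 476 ± 15.3 CPM in ImmAM_KO (−2.02 against mAM_WT, p-adj = 7.92e-11). M6pr, the cation-dependent mannose 6-phosphate receptor, was at 531 ± 32.7, 500.4 ± 48.1 and 279.8 ± 16.0 CPM (−0.92, p-adj = 6.11e-07). Nagpa and Gnptg, which help to make the mannose 6-phosphate tag, fell by 0.54 and 0.30 on the log2 scale in ImmAM_KO against mAM_WT (p-adj = 0.000315 and 0.0102), the latter with 0.0568 without ImmAM_KO replicate 2. The 3 called higher there were Igf2r, Sorl1 and Gga3. Igf2r was low, at 0.394 ± 0.185 CPM in mAM_WT and 3.63 ± 0.350 CPM in ImmAM_KO (3.37, p-adj = 0.000113). Sorl1, also low, was at 1.21 ± 0.159 and 2.26 ± 0.510 CPM (0.89, p-adj = 0.0324). Gga3 was at 57.9 ± 6.32 and 69.5 ± 4.26 CPM (0.27, p-adj = 0.0229).

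Of 6 partners and substrates, 0 were called in mAM_KO against mAM_WT by any of the 4 tools, with 0 at an unadjusted p under 0.05 in limma. In ImmAM_KO, 1 was higher (22.8% of all genes) and 2 lower (25.3%) against mAM_WT. Against mAM_KO, 1 was higher (17.7%) and 2 lower (20.2%). Psap, the saposin precursor that Ctsd cleaves, rose from 7692.5 ± 588 CPM in mAM_WT to 11279 ± 272 CPM in ImmAM_KO (0.56, p-adj = 0.000294). Its difference was 0.01 after quantile normalization (p-adj = 0.933), and replicate 4 of mAM_KO was at 10707 CPM. Neu1, the neuraminidase that Ctsa protects, was lower in ImmAM_KO, as Ctsa was, at 188 ± 15.5 CPM in mAM_WT and 149 ± 7.74 CPM in ImmAM_KO (−0.33, p-adj = 0.00265). Ifi30, a lysosomal thiol reductase of antigen processing, was at 455 ± 27.0 and 357 ± 11.8 CPM (−0.35, p-adj = 0.000563). Median log2 differences in ImmAM_KO against mAM_WT were 0.14 for the peptidases, 0.16 for the inhibitors, −0.02 for the sorting genes and 0.06 for the partners.

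**Figure D5:**
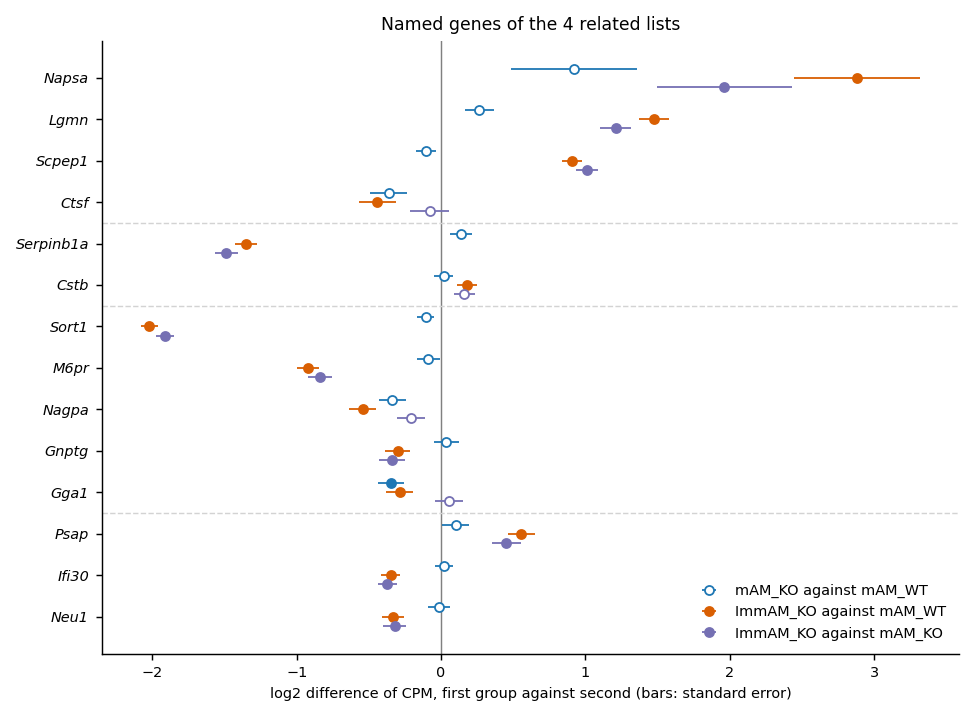
Log2 differences of CPM (horizontal axis, bars are standard errors) of the named genes of the 4 related lists, separated by dashed lines: peptidases, inhibitors, sorting and partners. Igf2r, Sorl1 and Gga3 are not drawn. Filled dots passed p-adj under 0.05; Lgmn lies at 1.47 and Sort1 at −2.02 in ImmAM_KO against mAM_WT, and in mAM_KO against mAM_WT the filled dot is Gga1 at −0.35, a call lost in edgeR, in limma-voom and with all 11 libraries.

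The nearest tested genes on either side of each member, with genes that overlap it left out, gave 18 genes that are not members. Between the mAM groups, 2 of them were higher (2.25% of all genes) and 1 was lower (2.59%), and in ImmAM_KO against mAM_WT 6 were higher (22.8% of all genes) and 3 lower (25.3%). Beside Ctsk, Arnt, which ends 2015 bases before it, differed by 0.06 and 0.08 on the log2 scale from mAM_WT in mAM_KO and ImmAM_KO (p-adj = 0.630 and 0.377), where Ctsk differed by 0.73 and 1.95. On the far side of Ctss, Golph3l was higher by 0.40 in mAM_KO (p-adj = 0.0172) and by 0.30 in ImmAM_KO (p-adj = 0.00635). Gm44751, which begins 589 bases after Ctsc, was higher by 0.90 in mAM_KO (p-adj = 0.0153) and by 1.31 in ImmAM_KO (p-adj = 3.79e-05). Gnas, the neighbour of Ctsz at a distance of 80748 bases, was lower by 0.33 in mAM_KO on the log2 scale (p-adj = 0.0286). With all 11 libraries, none of these 3 calls in mAM_KO was kept (p-adj = 0.136 for Golph3l, 0.169 for Gm44751 and 0.168 for Gnas).

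The genes whose centred log2 values over the 11 libraries were most like those of Ctsk were Emp1 (root mean square difference 0.120), Fam102b (0.134) and Cd300a (0.135), of 9958 genes compared. Emp1 was at 50.3, 82.7 and 217 CPM on average in mAM_WT, mAM_KO and ImmAM_KO, against 275, 454 and 1059.8 CPM for Ctsk.

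Markers of the cells moved with the same groups. Of 10 AM markers, 7 were lower (25.3% of all genes) and 1 was higher (22.8%) in ImmAM_KO against mAM_WT. In mAM_KO against mAM_WT, 2 AM markers were lower, Fabp4 and Krt79 (2.59% of all genes). Their summed level ranged from 19835 to 25686 CPM in mAM_WT, 24362 to 30895 CPM in mAM_KO and 24847 to 26645 CPM in ImmAM_KO, where Chil3 made up most of it. Siglecf, on which all cells were gated, was at 257 CPM on average in mAM_WT, 221 CPM in mAM_KO and 19.6 CPM in ImmAM_KO. The 4 general macrophage markers summed to 1596 to 1761 CPM, 1665 to 1773 CPM and 1570.3 to 1615 CPM in the same order. Behind these sums, 2 were called lower (25.3% of all genes) and 1 higher (22.8%) in ImmAM_KO against mAM_WT. Mertk and Fcgr1 were lower (log2 difference −0.85 and −0.65, p-adj = 3.90e-06 and 9.72e-06), and Adgre1 was higher (0.28, p-adj = 0.00754). None was called in mAM_KO against mAM_WT. Monocyte markers (5 of 6 in the table) summed to 12.0 to 18.4 CPM in mAM_WT, 17.0 to 33.5 CPM in mAM_KO and 204 to 211 CPM in ImmAM_KO, and Cx3cr1 was called higher in mAM_KO too (p-adj = 0.0164, or 0.0691 in limma-voom and 0.0626 and 0.0616 without mAM_KO replicate 1 or 3). The interstitial macrophage markers C1qa, C1qb and C1qc (3 of 6 in the table) summed to 0.0603 to 0.244 CPM in mAM_WT, 0.115 to 0.748 CPM in mAM_KO and 85.0 to 98.7 CPM in ImmAM_KO. Dendritic cell markers (2 of 6) reached 20.7 to 24.1 CPM in ImmAM_KO against 5.40 to 7.24 CPM in mAM_WT, and neutrophil markers (5 of 5) 51.7 to 61.9 CPM against 30.7 to 39.5 CPM. In mAM_KO these lists reached 5.45 to 8.12 CPM and 24.6 to 40.6 CPM. The single B cell and club cell markers in the table stayed below 1.76 CPM in every library, and none of the markers of eosinophils, mast cells, T and NK cells, alveolar type 2 cells, endothelial cells or fibroblasts was among its genes. The part of these marker levels in the differences of the cathepsins and of Cst3 was not tested.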

How the data were processed

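RNA from 11 libraries of sorted AMs was sequenced. According to the methods and the processing notes, the authors trimmed reads with Cutadapt (reads under 30 bases were discarded), quantified them on the GRCm38 transcriptome with RSEM 1.3.1, normalized by TMM in limma and kept genes that reached 1 CPM in 3 samples. The deposited values are CPM on TMM-scaled library sizes. Each is a whole number of reads plus 0.5, times a step fixed within a library, and whole reads were recovered within 0.01 for 100% of values in each library.

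Deposited values were taken as log2 with no further pseudocount. Groups came from the sample titles. Libraries were fitted in limma 3.58.1 (R 4.3.3) with 1 mean for each of 3 groups and a trended eBayes prior. Replicate 4 of mAM_KO was left out, and 12889 genes reached 1 CPM in 3 of the remaining 10 libraries. Two-sided p-values were adjusted by Benjamini-Hochberg across these genes (p-adj), at a threshold of 0.05. The recovered reads were also tested by limma-voom, by DESeq2 1.42.0 and by the quasi-likelihood test of edgeR 4.0.16, which called 566 genes in mAM_KO against mAM_WT. Scripts were tested on simulated counts. Other alternatives changed the libraries, pseudocount, filter, scaling, variance prior and block. Gene positions and lengths come from GENCODE vM21 (12919 of 12932 genes matched by ID).

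The members, gene lists, markers and tests were chosen with earlier results of these data known, so no list is independent evidence. Named are all members, and of each related list the genes called in ImmAM_KO against mAM_WT whose higher group averaged 5 CPM or above (at most 4, by size of the log2 difference) and any called in mAM_KO against mAM_WT. Beyond this rule, the sorting genes Igf2r, Sorl1 and Gga3 are named as those called higher in ImmAM_KO against mAM_WT. The nearest tested gene on each side of a member, without those that overlap it, was taken too. So were the 3 genes most like Ctsk, also the member with the widest range.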

Additional observations from a re-analysis of the deposited data

Results flagged for a closer look

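Over the 20 groups of 4 libraries looked at (10 members in mAM_WT and mAM_KO), 2 held a library far from the others, and chance alone flags about 1 group in 20. Cst3 was at 407.385 CPM in mAM_KO replicate 4, where the next highest mAM_KO library was at 301 CPM. Ctsl was at 257.65 CPM in mAM_KO replicate 2, where the next lowest was at 270.4 CPM. The Cst3 value belongs to the library left out of the main fit, and with it the log2 difference of Cst3 in mAM_KO against mAM_WT was 0.09 (p-adj = 0.769).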

How the results depend on the processing

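Members called in ImmAM_KO against mAM_WT numbered 7 under all alternatives run, and in ImmAM_KO against mAM_KO 6 or 7. In mAM_KO against mAM_WT, Ctsk was called under every alternative run, and the count of 1 member rose to 2 with a filter at 5 CPM and after quantile normalization and to 3 in DESeq2. Leaving out 1 library at a time gave a count from 1 to 3, with 2 without mAM_KO replicate 2 and 3 without mAM_WT replicate 1; the members added were Ctsc and Ctsa. The cause was not tested.

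Over all genes, 624 were called in mAM_KO against mAM_WT, and 337 with all 11 libraries, 122 without a variance trend, 199 with only these groups in the fit, 1352 in DESeq2 and 162 to 861 with each library left out in turn (162 without mAM_KO replicate 3, 212 without mAM_KO replicate 1, 220 without mAM_WT replicate 2, 327 without replicate 3 and 355 without replicate 4, and 397, 424 and 386 without ImmAM_KO replicates 2, 3 and 4). Deviations from the group means correlated from −0.13 to 0.25 between same-numbered libraries, over 0.1 in 2 of 10 pairs. Not every library correlated best with its own number. With 3 or 4 libraries per group, these correlations cannot decide whether the numbers pair the samples. The reported fit does not pair them. With the replicate block, 174 genes were called and the members called were 1, 7 and 6 in the 3 comparisons.

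Directions changed only for members not called. In mAM_KO against mAM_WT, Cst3 was at −0.02 in the reported fit and at 0.0935 with all 11 libraries, 0.0108 after quantile normalization, 0.0229 with the replicate block and −0.0961 to 0.0465 with each library left out. Ctsl was at −0.00122 and moved to 0.00616 with all 11 libraries, 0.00079 with median-ratio scaling and 0.0125 after quantile normalization, and ranged from −0.0869 to 0.0433 with each library left out. Ctsd was at −0.0813 after quantile normalization and ranged from −0.0086 to 0.121, and Ctsb ranged from −0.0242 to 0.0616. In ImmAM_KO, quantile normalization put Ctsd at −0.12 against mAM_WT and −0.0406 against mAM_KO, and Ctsz ranged from −0.0221 to 0.0512 against mAM_WT with each library left out.

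Chosen after seeing the data, all 11 libraries without mAM_KO replicate 1, 2 or 3 in turn gave 162, 502 and 174 calls over all genes. Cst3 was then at 0.126, 0.153 and 0.120, Ctsl at 0.0246 without replicate 2 and 0.0013 without replicate 3, Ctsz at 0.0124 and 2.28e-05 in the same order, and Ctsd at −0.0425 in ImmAM_KO against mAM_KO without replicate 2. With Gm49369 added to Ctsd, the calls of the members were 1, 7 and 6.

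With 3 or 4 libraries per group, differences of the size of that of Ctsc between the mAM groups lay at the threshold. Levels per kb moved with the choice of gene length by more than the SD in 20 of 30 values. No value here tells apart a change within cells from a change in the cells sorted.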
